A study of Macaca mulatta with 6 samples.

Results

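miR-146, miR-155, miR-150 and miR-342, 4 miRNA families known from lymphocytes and from inflammatory signalling, were followed in the plasma of rhesus monkeys (Macaca mulatta), drawn before ischemia and again once the middle cerebral artery was blocked (MCAO). Members were taken by name: every entry whose miRNA name, without species prefix, arm, copy number and length variant, was one of these with or without a closing letter. This gave 13 of the 2046 entries, namely 2 of miR-146a, 2 of miR-146b, 2 of miR-155, 4 of miR-150 and 3 of miR-342. Plasma of 3 adult male monkeys aged 7 to 11 years was sequenced as 1 small RNA library per monkey and time, 3 before ischemia and 3 after ischemia. For MCAO a clot was flushed through a micro-catheter into the M1 segment of the right artery, and the second sample was drawn at 3 h after stroke onset according to the methods. Only monkeys whose artery was still occluded at that time were kept, and all were fasted and anesthetized with ketamine and propofol. There was no sham-operated group, so ischemia, surgery, anesthesia and elapsed time cannot be told apart. Libraries of the same number were taken as 1 monkey.

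MicroRNAs are cut from a hairpin precursor whose 2 arms, 5p and 3p, each give a mature strand, and bases 2 to 8 of that strand, the seed, select target mRNAs. miR-146a is induced by NF-κB and dampens Toll-like receptor signalling through TRAF6 and IRAK1, and miR-146b is a paralog with the same seed. miR-155 is made from the MIR155HG transcript in activated lymphocytes and macrophages and represses SOCS1. miR-150 is abundant in mature B and T cells and limits MYB, and miR-342 is encoded in the gene EVL and is found in lymphocytes. In the RefSeq annotation of the rhesus assembly T2T-MMU8v2.0, used here for names only, MIR155 lay within MIR155HG and also within the coding gene MRPL39. MIR342 lay within EVL and MIR146A within a long non-coding RNA, and MIR146B was not matched by name. MIR150 lay within both a long non-coding RNA and a coding gene model.

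The leading entry of each arm is shown first, in the order of its family, because the arms and paralogs are what the following values compare. The seed is in capitals, and L and R in a name count the bases by which the 5′ (L) or 3′ (R) end is longer (+) or shorter (-) than in miRBase.
mml-miR-146a-5p: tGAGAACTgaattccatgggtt
mml-miR-146b-5p_R+2: tGAGAACTgaattccataggctgt
mml-miR-146b-3p_L-1R+2: tGCCCTATggactcagttctggt
mml-miR-155_R+1: tTAATGCTaatcgtgataggggtt
mml-miR-150-5p: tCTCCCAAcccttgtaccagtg
mml-miR-150-3p: cTGGTACAggcctgggggaca
mml-miR-342-5p: aGGGGTGCtatctgtgattga
mml-miR-342-3p: tCTCACACagaaatcgcacccgt
The 5p strands of miR-146a and miR-146b shared their first 17 bases and so also the seed GAGAACT, which no entry outside miR-146 carried. The seed of miR-155 was found in 1 entry of the table, and those of miR-150-5p and miR-342-3p only in variants of the same miRNA. Besides miR-150-3p, mml-mir-579-p3 carried the seed TGGTACA. No entry for the 3p arm of miR-146a or miR-155 was among those analysed here.

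The other 5 entries were variants of these strands, and they are shown because 2 of them carry a different seed.
bta-miR-150: tCTCCCAAcccttgtaccagtgt
ssc-miR-150_L+2: aATCTCCCaacccttgtaccagtg
chi-miR-155-5p_L+2R+1: aATTAATGctaatcgtgataggggtt
mmu-miR-146a-5p_R+3: tGAGAACTgaattccatgggttaaa
bta-miR-342_R-3: tCTCACACagaaatcgcaccca
The L+2 forms of miR-150 and miR-155 began 2 bases earlier, with aa, which moved the seed to ATCTCCC and ATTAATG. bta-miR-150 was the 22 nt strand of miR-150-5p with 1 more base, a t, at the 3′ end. bta-miR-342_R-3 shared the first 21 of its 22 bases with mml-miR-342-3p, so it was not a length variant alone. The prefix of another species (bta, ssc, chi, mmu) is that of the miRBase entry by which the authors' table names the sequence, and all reads came from monkey plasma.

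All levels are normalized counts as computed by the authors. In each library 84.0% to 86.9% of the values above 0 were whole multiples of 1 factor. Recovered from the steps between low values, the library totals were 6036831 to 9737589 counts after ischemia and 10745499 to 15548693 before. A level of 3 counts, taken as the limit of detection, was 3.85 to 5.58 normalized counts after ischemia and 1.70 to 2.34 before. Such a limit covers counting error only.

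miR-155 had the highest mean level of the arms. mml-miR-155_R+1 had 40362, 112136 and 36857 normalized counts in replicates 1, 2 and 3 after ischemia and 56991, 97968 and 28708 before. On the authors' scaling it followed the monkey and not the time point, since monkey 2 was highest and monkey 3 lowest at both times. As percent of a library monkey 2 was highest at both times. The lowest was then monkey 1 after (0.301%, against 0.328% in monkey 3) and monkey 3 before ischemia (0.327%, against 0.681% in monkey 1). The level was 63119 ± 42486 after and 61222 ± 34824 before ischemia (SD, n = 3 each), and the groups overlapped over nearly their whole range. In replicate 1 after ischemia it lay below miR-146a-5p. Between the samples of a monkey it was 0.708, 1.14 and 1.28 times as high after ischemia in monkeys 1, 2 and 3. Differences between monkeys made up 93.4% of the spread of its summed log2 values over the 6 libraries, and the difference of the groups 0.0172%, against medians of 34.5% and 29.4% over the 727 summed arms tested.

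miR-146a-5p was the second most abundant in the mean. mml-miR-146a-5p had 46891, 31067 and 24929 normalized counts after ischemia and 10300.4, 23931 and 18066 before. All 3 values after ischemia lay above all 3 before, although the lowest after and the highest before differed little. As percent of a library the groups overlapped, at 0.222% in monkey 3 after and 0.233% in monkey 2 before ischemia. The means were 34296 ± 11332 and 17432 ± 6837 (SD, n = 3 each). Monkey 1 had the lowest level before and the highest after ischemia, a 4.55-fold difference, compared with 1.30-fold in monkey 2 and 1.38-fold in monkey 3.

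miR-146b-5p, the paralog, was less abundant and more even between monkeys. mml-miR-146b-5p_R+2 had 6530.4, 4648 and 4577 normalized counts after ischemia and 2415, 3097 and 2706 before. The groups did not overlap, and the level was 2.70, 1.5 and 1.69 times as high after ischemia in monkeys 1, 2 and 3. Means were 5252 ± 1108 and 2739 ± 342 (SD, n = 3 each). The recovered counts of miR-146a-5p and miR-146b-5p ended in 0.5 in the same libraries. They were 34010.5 and 4736.5 in replicate 1 after, 24230.5 and 3625.5 in replicate 2 after, and 13221.5 and 3100.5 in replicate 1 before ischemia. Whether reads were divided between the paralogs was not tested, so the levels may not be separate measurements. The 3p strand, mml-miR-146b-3p_L-1R+2, had 149, 82.1 and 76.2 normalized counts after and 115, 94.8 and 85.9 before ischemia, with groups that overlapped. Its values rested on 41 to 152 counts a library.

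miR-150-5p differed widely between monkeys. mml-miR-150-5p had 20753, 3123 and 19614 normalized counts after ischemia and 4778, 2709 and 8464 before. Monkey 2 was lowest at both times, and its sample after ischemia lay below those of monkeys 1 and 3 before ischemia, so the groups overlapped. The level was higher after ischemia in 3 of 3 monkeys, by 4.34-fold, 1.15-fold and 2.32-fold, with means of 14497 ± 9866 and 5317 ± 2915 (SD, n = 3 each). mml-miR-150-3p, the other strand of the same hairpin, had 598, 274 and 311 normalized counts after and 291, 1340.1 and 1155 before ischemia. It was higher after ischemia in monkey 1 and lower in monkeys 2 and 3, at means of 394 ± 178 and 928 ± 560 (SD, n = 3 each).

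miR-342-3p had the largest fold change of the member entries tested. mml-miR-342-3p had 6600.0, 1905 and 3243 normalized counts after ischemia and 1335, 646 and 763 before. Every sample after ischemia lay above every sample before, and the order of the monkeys, with monkey 1 highest and monkey 2 lowest, was the same at both times. As percent of a library the groups also did not overlap but nearly met, at 0.0169% in monkey 2 after and 0.0159% in monkey 1 before ischemia. Within a monkey the level was 4.95, 2.95 and 4.25 times as high after ischemia, with means of 3916 ± 2419 and 914 ± 369 (SD, n = 3 each). The 5p strand, mml-miR-342-5p, had 506, 83.3 and 253 normalized counts after and 64.7, 98.2 and 169 before. It was higher after ischemia in monkeys 1 and 3 and lower in monkey 2, and the groups overlapped.

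**Figure D1:**
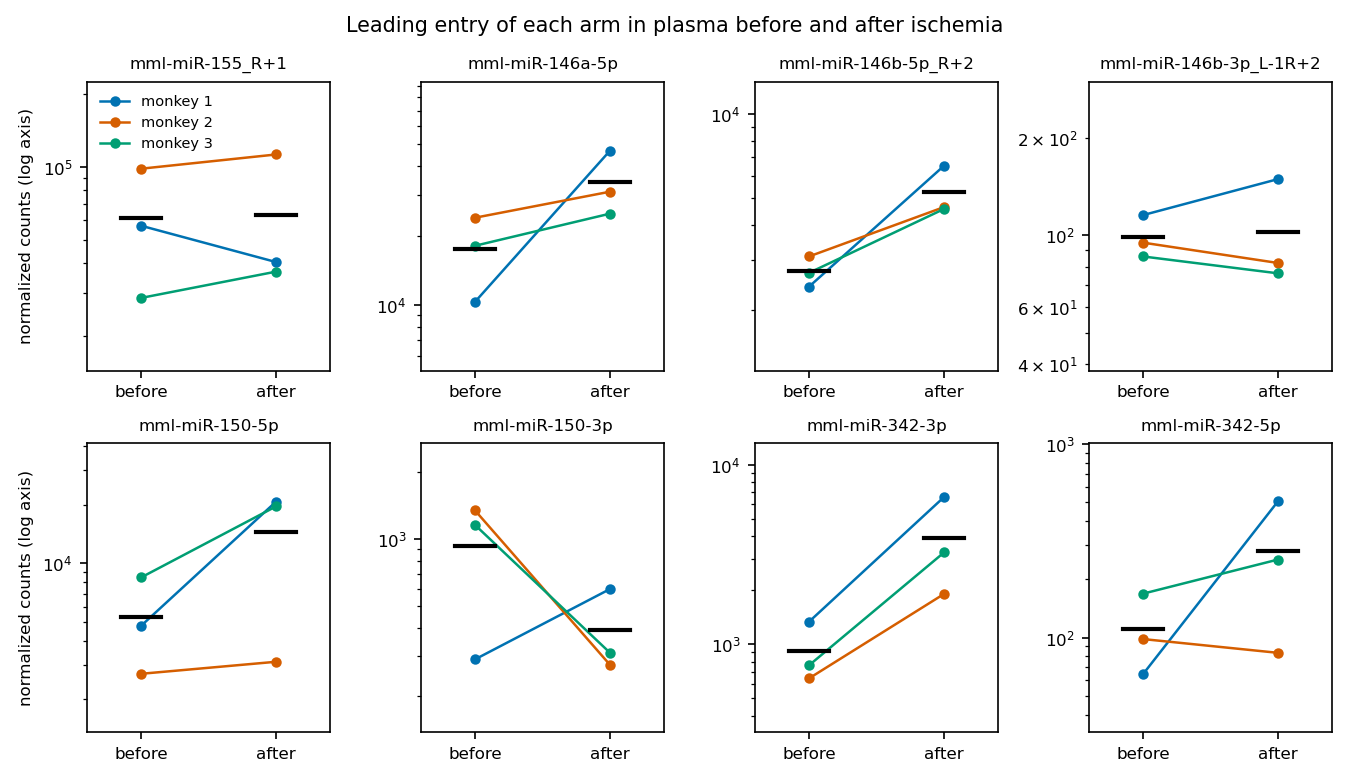
Normalized counts (log axis) of the leading entry of each arm before and after ischemia, with 1 line per monkey and a black bar at the mean of the 3 samples. The lines of miR-342-3p, miR-146a-5p, miR-146b-5p and miR-150-5p slope upward in 3 of 3 monkeys. Those of miR-155 keep the order of the monkeys, with monkeys 1 and 3 close together after ischemia.

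The variants were a small part of all arms but miR-150-5p. bta-miR-150, the form of miR-150-5p with the added t, had 2243, 532 and 1724 normalized counts after and 449, 651 and 939 before ischemia. It held 9.74%, 14.6% and 8.06% of the arm after ischemia and 8.56%, 19.3% and 9.98% before, most in monkey 2 at both times. The share differed by −1.84 percentage points (exact two-sided permutation test over 3 samples each, p = 0.6). The seed-shifted ssc-miR-150_L+2 was listed at 0 in replicate 2 after ischemia and at 6.05 to 55.8 normalized counts in the other 5 libraries. chi-miR-155-5p_L+2R+1, the seed-shifted miR-155, was highest in monkey 2 both after (17.95) and before ischemia (24.9), and was listed at 0 in replicate 3 after and replicate 1 before ischemia. mmu-miR-146a-5p_R+3 appeared in replicate 1 after ischemia alone, at 26.2 normalized counts or 19 counts. bta-miR-342_R-3 had 12.4 normalized counts in replicate 1 after ischemia, 5.45 and 3.39 in replicates 1 and 3 before, and 0 in the others.

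By mean level before ischemia the leading entries ranked in the order miR-155, miR-146a-5p, miR-150-5p, miR-146b-5p, miR-150-3p, miR-342-3p, miR-342-5p and miR-146b-3p. Their ranges overlapped between miR-150-5p and miR-146b-5p, between miR-150-3p and miR-342-3p and between miR-342-5p and miR-146b-3p, and not between the other neighbours. After ischemia miR-342-3p stood above miR-150-3p without overlap, and the order was otherwise the same. There the ranges overlapped between all neighbours except miR-146a-5p and miR-150-5p, and miR-342-3p and miR-150-3p. Small RNA libraries do not capture all sequences equally, so differences of level between miRNAs are differences of normalized counts. Together the members held 0.929%, 1.36% and 0.816% of a library after ischemia and 0.917%, 1.27% and 0.695% before (difference 0.0758 percentage points, exact two-sided permutation test over 3 samples each, p = 0.7). The share was higher after ischemia in 3 of 3 monkeys, by 0.0121, 0.0936 and 0.122 percentage points (exact paired p = 0.25, the smallest possible). With miR-486 left out of the total the difference was 0.275 percentage points (exact p = 0.3).

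The comparison after against before ischemia asks which circulating miRNAs differ in monkeys with an occluded artery. log2(normalized count + 1) was tested with limma over the 807 entries with at least 10 normalized counts in 3 libraries, and Benjamini-Hochberg adjusted p under 0.05 was taken as a change. Of the 13 members 11 entered the test, all but mmu-miR-146a-5p_R+3 and bta-miR-342_R-3. None of the 11 passed, against 5.45% of all entries tested (1.98% higher and 3.47% lower after ischemia). Scaled by library totals, 11 entries were called higher and 46 lower, against 16 and 28, and again no member passed. At an unadjusted p under 0.05 there were 3 of the 11, all higher after ischemia (miR-146a-5p, miR-146b-5p and miR-342-3p), against 22.3% of all entries in either direction and 9.79% in that one. On the authors' scaling the same 3 had no overlap of the groups, against 26.9% of all entries in either direction and 11.5% in that one. With miR-150-5p, 4 of 11 were higher in 3 of 3 monkeys, against 22.6% of all entries, and none was lower in 3 of 3, against 24.3%. As percent of a library the groups of miR-146a-5p overlapped. The median log2 fold change of the 11 was 0.93, and that of all 807 entries −0.06.

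mml-miR-342-3p came closest, at a log2 fold change of 1.98 (standard error 0.505, 95% interval 0.83 to 3.13, limma adjusted p = 0.0665). With the monkey as a block, which takes the 3 differences within monkeys, its standard error was 0.308 and it passed as the only member (limma adjusted p = 0.0177), against 5.70% of all entries that passed with the block. When the sample of monkey 2 after ischemia was left out it passed as well (adjusted p = 0.0320), as it did without both libraries of monkey 2 (0.00411). Leaving out any other single library gave 0.0509 to 0.192, without both libraries of monkey 1 or 3 it was 0.104 or 0.396, and the log2 fold change lay between 1.51 and 2.41 in all 18 alternatives tried.

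The log2 fold change of mml-miR-146a-5p was 1.01 (standard error 0.391, 95% interval 0.12 to 1.90, limma adjusted p = 0.167), and 0.42 without both libraries of monkey 1. mml-miR-146b-5p_R+2 had 0.93 (standard error 0.30, 95% interval 0.24 to 1.61, limma adjusted p = 0.121). Neither passed under any setting tried, at adjusted p from 0.0729 to 0.529 and from 0.0981 to 0.410.

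mml-miR-150-5p had a log2 fold change of 1.18 with a 95% interval of −0.51 to 2.87 (limma adjusted p = 0.387). With the monkey as a block the interval was 0.21 to 2.14, and the adjusted p of 0.129 still missed the threshold. One library moved it most, that of monkey 2: with its sample after ischemia left out the log2 fold change was 2.08 (adjusted p = 0.0494), and without both libraries of monkey 2 it was 1.67 (0.0168). The variant bta-miR-150 had 0.97 (limma adjusted p = 0.361). mml-miR-150-3p had −1.05 with a 95% interval of −2.47 to 0.38 (limma adjusted p = 0.366).

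The change of miR-155 was near 0 but loosely bounded. mml-miR-155_R+1 had a log2 fold change of 0.02, with a 95% interval of −1.24 to 1.28 (limma adjusted p = 0.990), and the interval was −0.65 to 0.68 with the monkey as a block. Scaled by library totals, the log2 fold change was −0.37. mml-miR-342-5p had 1.10 (interval −0.50 to 2.70, limma adjusted p = 0.390), which ranged from 0.50 to 1.80 with 1 library left out and was 0.17 without both libraries of monkey 1, and mml-miR-146b-3p_L-1R+2 0.00 (interval −1.09 to 1.08, limma adjusted p = 0.999).

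**Figure D2:**
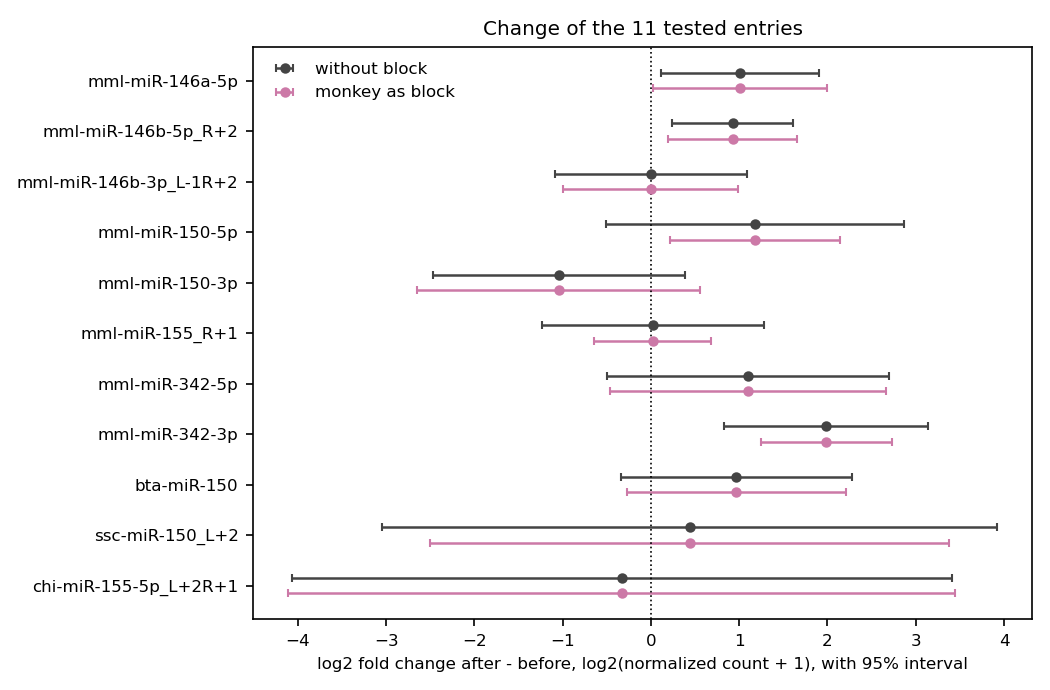
log2 fold change after minus before ischemia of the 11 tested entries (x axis) with 95% intervals from limma, without a block (grey) and with the monkey as a block (pink). Without the block the intervals of miR-342-3p (0.83 to 3.13), miR-146b-5p (0.24 to 1.61) and miR-146a-5p (0.12 to 1.90) lie above 0, which does not account for the 807 tests, and the intervals of miR-155 and miR-150-5p narrow with the block.

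Since reads of a strand are split over length variants, the entries of an arm were also summed, which gave 8 member arms among 1801 sums, 727 of them tested. None of the 8 passed, against 5.91% of all sums. With the monkey as a block miR-342-3p passed (log2 fold change 1.98, limma adjusted p = 0.0154), against 6.74% of all sums. Without the block the sum of miR-342-3p had an adjusted p of 0.0603, and it also passed without monkey 1 before ischemia. For miR-150-5p, to which bta-miR-150 adds most, the log2 fold change of the sum was 1.15 (adjusted p = 0.377). This sum had 23041, 3655 and 21394 normalized counts after and 5241, 3366 and 9413 before ischemia. As percent of a library it was 0.0324% after and 0.0328% before ischemia in monkey 2, and so slightly lower after. The sums of miR-146a-5p (1.01), miR-146b-5p (0.93), miR-146b-3p (0.00), miR-155-5p (0.02), miR-150-3p (−1.05) and miR-342-5p (1.10) had the log2 fold changes of their leading entries.

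The sums showed how the spread of each arm was divided. Beside miR-155, the arms with a large share of the spread between monkeys were miR-146b-3p (84.0%) and miR-150-5p (60.7%). For miR-146b-3p this is the share of a narrow range, 76.2 to 149 normalized counts on 41 to 152 counts. The range of miR-155-5p was 28721 to 112154 normalized counts. The difference of the groups held 84.7% of the spread of miR-146b-5p, 72.5% of that of miR-342-3p and 56.1% of that of miR-146a-5p. For miR-150-3p and miR-342-5p it held 30.8% and 29.4%, while 62.1% and 44.3% lay neither between monkeys nor between groups, and the direction of the change differed among monkeys. The share between monkeys of miR-155 was above that of 97.0% of the 727 sums.

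**Figure D3:**
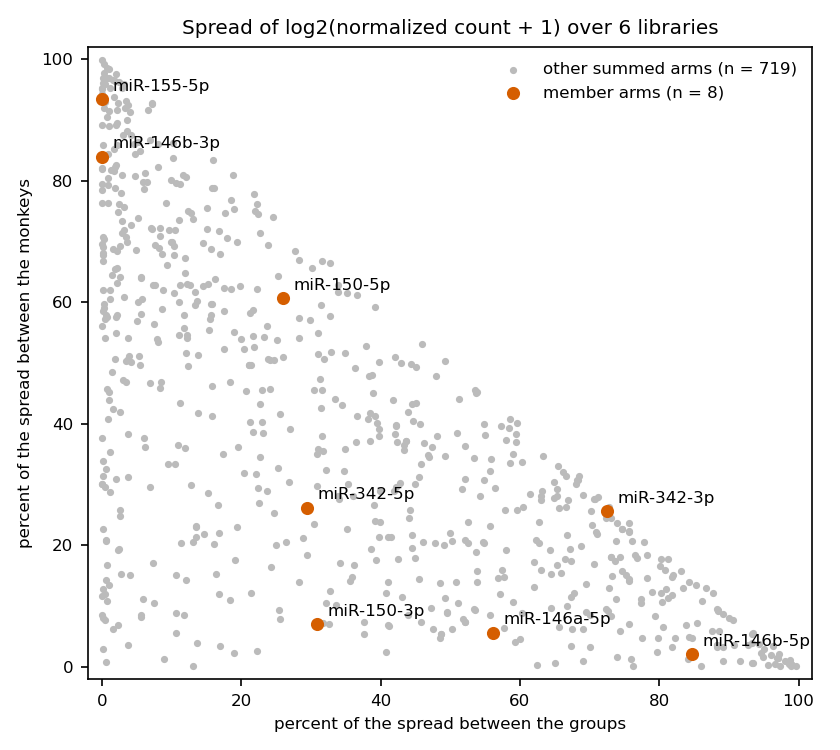
Each point is a summed arm, placed by the percent of its spread of log2(normalized count + 1) over 6 libraries that lies between the groups (x axis) and between the monkeys (y axis), with the 8 member arms in orange and the other tested arms in grey. miR-155-5p sits at 93.4% between monkeys, and miR-146b-5p at 84.7% between groups.

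Ratios within a library do not depend on the scaling of libraries and were compared by exact two-sided permutation tests, which with 3 against 3 samples cannot give a p below 0.1. The strand ratio of miR-146b lay further toward 5p after ischemia in 3 of 3 monkeys. The log2 ratio of 5p to 3p was 5.45, 5.81 and 5.89 after and 4.38, 5.02 and 4.96 before ischemia, with no overlap. The differences within monkeys were 1.07, 0.79 and 0.93, with a mean of 0.93 (exact p = 0.1, the smallest possible).

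The strand ratio of miR-150 was also further toward 5p after ischemia in 3 of 3 monkeys. The log2 ratio of 5p to 3p was 5.26, 3.73 and 6.10 after and 4.17, 1.33 and 3.03 before ischemia. Because monkey 2 was lowest at both times the groups overlapped, and the mean difference of 2.19 had an exact p of 0.2. For miR-342 the log2 ratio of 3p to 5p was 3.71, 4.50 and 3.68 after and 4.35, 2.70 and 2.18 before ischemia. It was higher after ischemia in monkeys 2 and 3 and lower in monkey 1 (mean difference 0.88, exact p = 0.3). With monkey 1 or monkey 3 before ischemia left out the difference was 1.52 or 0.43.

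The proportion of the miR-146 paralogs did not differ beyond the spread between samples. The log2 ratio of miR-146b-5p to miR-146a-5p was −2.84, −2.74 and −2.45 after and −2.09, −2.95 and −2.74 before ischemia, a difference of −0.08 (exact permutation p = 0.8). Monkey 1 before ischemia, where miR-146a-5p was low, had the highest ratio. With the share of the members and that of the longer miR-150-5p, 6 such comparisons were made, and their Benjamini-Hochberg adjusted p lay between 0.6 and 0.8.

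**Figure D4:**
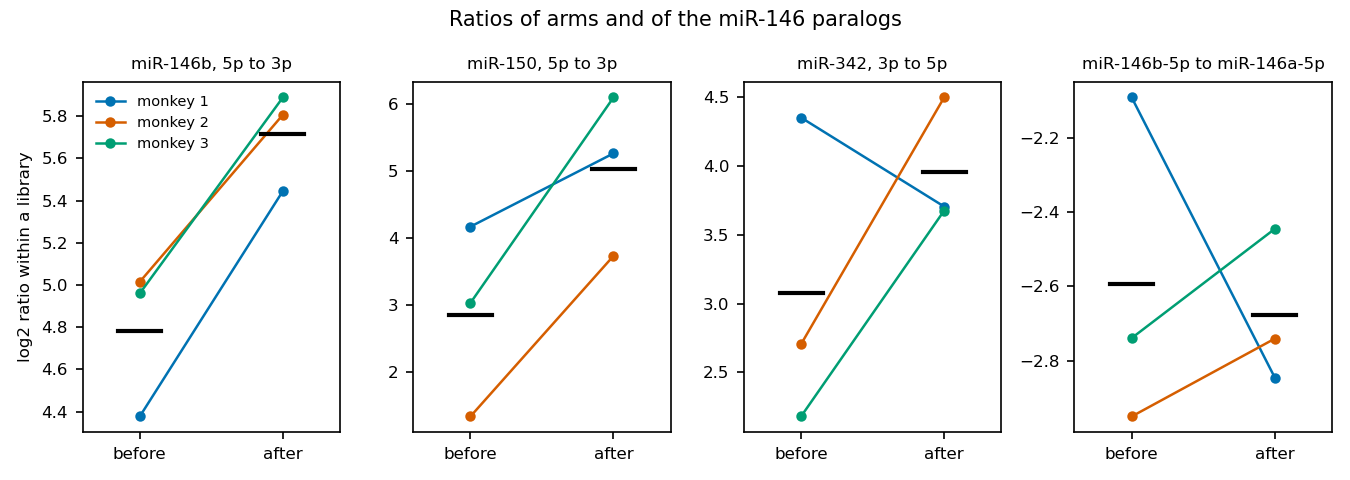
log2 ratios within each library before and after ischemia for the arms of miR-146b, miR-150 and miR-342 and for the miR-146 paralogs, with 1 line per monkey and a black bar at the mean. The 3 values of miR-146b lie at 4.38 to 5.02 before and at 5.45 to 5.89 after ischemia, while those of the paralog ratio cross.

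Arms of other miRNAs with a profile close to the members' were looked up among 597 known summed arms by Pearson's r of log2 values over the 6 libraries, which come from 3 monkeys and share the scaling factors, so r is a description only. Closest to miR-155-5p were miR-221-5p (0.993), miR-135a-3p (0.992) and miR-4446-3p (0.971), each with a log2 fold change between −0.04 and 0.15. Closest to miR-146a-5p were miR-92a-5p (0.991), miR-7186-5p (0.975) and miR-10527-5p (0.934). Closest to miR-146b-5p were miR-92b-3p (0.988), miR-142-5p (0.987) and miR-200b-5p (0.980). miR-598-5p (0.984), miR-1543-5p (0.983) and miR-548ae-5p (0.949) were closest to miR-342-3p, all at mean levels of 11.5 to 29.3 normalized counts. miR-150-5p was closest to miR-29b-3p (0.984), to miR-144 (0.981) and to miR-133b-3p (0.956). Among all pairs of member arms, the highest r were those of miR-146a-5p and miR-146b-5p (0.921), miR-150-5p and miR-342-5p (0.907) and miR-146b-5p and miR-342-3p (0.863). The lowest was that of miR-150-5p and miR-155-5p (−0.806). These pairs were picked as the extremes.

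Plasma also holds RNA of red blood cells, platelets and other leukocytes, and fewer cells of a type and less RNA per cell cannot be told apart in it. Red blood cell miRNAs (miR-451, miR-486, miR-144, miR-16 and miR-92) held 34.9%, 14.3% and 29.7% of a library after ischemia and 9.82%, 8.30% and 22.7% before. This share had the same order over the 6 libraries as miR-150-5p except for monkey 1 before and monkey 2 after ischemia. The samples of monkeys 1 and 3 after ischemia, highest in this share, were also the highest for both strands of miR-342. Its part in the values of the members was not tested. Of the 20 tested entries 1, mml-miR-92a-3p, passed and was lower, against 5.45% of all entries called. At an unadjusted limma p under 0.05 there were 6 higher and 3 lower of the 20, against 22.3% of all entries in either direction and 9.79% higher. The median log2 fold change was 0.63. Another measure of red blood cell RNA, miR-451 divided by miR-23a-3p, was on the log2 scale 2.19, −0.16 and 1.86 after and 0.33, 0.11 and 1.90 before ischemia, higher after ischemia in monkey 1 alone. Platelet miRNAs (miR-126, miR-197, miR-151, miR-28, miR-191, miR-199 and miR-24) held 8.95% to 15.2% after and 8.56% to 11.9% before ischemia, with none of 19 tested entries past the threshold. At the unadjusted limma threshold 2 of these were higher and 2 lower. No miRNA of these lists was at 0 in all libraries.

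Other miRNAs of leukocytes and of inflammatory signalling gave 1 entry higher and 2 lower past the threshold, of 6, 21 and 17 tested in 3 lists, against 5.45% of all entries called. At an unadjusted limma p under 0.05, 1, 0 and 0 were higher and 2, 3 and 2 lower in these lists. Of all entries 22.3% met that threshold in either direction and 9.79% were higher. miR-223 and miR-142, of myeloid and other blood cells, together held 4.69% to 5.47% after and 3.87% to 6.61% before ischemia, and of 6 tested entries 1 was higher and 1 lower. These were mml-miR-142-5p_L+2R-2 at a log2 fold change of 1.37 and mml-miR-142-3p_R-1 at −3.04 (limma adjusted p = 0.0354 and 0.00937). With the monkey as a block miR-142-5p no longer passed (adjusted p = 0.0565). Of 21 tested entries of miR-181, miR-29 and miR-26, which T and B cells express, none passed, and their median log2 fold change was −0.49, against −0.06 over all entries. The 2 smallest p belonged to mml-miR-181c-5p_R+1 (−1.46, adjusted p = 0.0785) and hsa-miR-181a-2-3p_R-1 (−1.26, adjusted p = 0.133), from the miR-181 family that tunes T cell receptor signalling. Of 17 tested entries of miR-21, miR-132, miR-147, miR-125, miR-9 and miR-187, which inflammatory signalling can induce, only mml-miR-21-3p_R-1 passed, and it was lower (log2 fold change −5.29, adjusted p = 0.000985). The median log2 fold change of the 17 was 0.22, against −0.06 over all entries. This list took 2.90%, 5.96% and 3.31% of a library after and 8.11%, 11.05% and 5.84% before ischemia.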

How the data were processed

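Small RNA (TruSeq) of plasma was sequenced as single reads of 50 bp and processed by the authors with ACGT101-miR, keeping 18 to 26 nt and naming sequences by miRBase. The deposited table holds a signal per sequence, the normalized counts of the authors, and no raw counts; the method behind the factors, the aligner and the build are not given in the sources used here. The value of 1 count was recovered in each library from low values, of which at least 80% below 200 had to be whole multiples within 0.01 counts. Of all values above 0, 84.0% to 86.9% were whole, so no count model was used.

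Groups were compared with limma 3.58.1 (R 4.3.3) on log2(normalized count + 1), with a variance trend and no covariate, after a run on simulated data. For sums, sequences of 1 name and arm were added, and entries without an arm took that of an entry sharing 15 bases. Ratios and exact permutation tests used Python 3.11.15, NumPy 2.4.6 and SciPy 1.17.1. Alternatives were other scalings, pseudocounts and filters, a fit without the trend, the replicate block and left-out libraries. Leaving out both libraries of a replicate was chosen after seeing the data.

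Members, lists and tests were chosen with earlier results of these data known. The rule named the leading entry and sum of each arm, called members, the 3 nearest profiles of 5 arms and the 2 smallest p of each list. Of the latter, mml-miR-92a-3p, mml-miR-486-5p, mml-miR-197-3p, mml-miR-191-5p and mml-miR-9-5p had log2 fold changes of −1.82, 1.76, 1.37, 0.98 and −1.43 (limma adjusted p = 0.0314, 0.0833, 0.0785, 0.106 and 0.191).

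Both groups carry the numbers 1 to 3 in the labels, and the study sampled the same 3 monkeys at both times. On this basis the numbers were taken as pairs, which the labels do not state. The deviations of same-numbered samples from their group means had r = 0.18, 0.36 and 0.29, and those of other pairs −0.40 to 0.14. Deviations from a mean of 3 samples cancel within a group, so the other pairs are no independent reference. The r values therefore do not test the pairing.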

Additional observations from a re-analysis of the deposited data

How the results depend on the processing

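Member calls moved from 0 to 1, in each case miR-342-3p, with a pseudocount of 5, no filter, a filter at a mean of 50 or the replicate block, for entries and for sums. Leaving out 1 library, or both of a replicate, gave 0 to 2 called entries and sums, the 2 being miR-342-3p and miR-150-5p. Among all 807 entries 44 passed, 46 with the replicate block, which changed no other member call, and 31 without the trend. Leaving out 1 library gave 19 to 43, and leaving out both libraries of replicate 1, 2 or 3 gave 18, 49 or 3. Library totals moved the median log2 fold change of all entries from −0.06 to −0.43, and that of miR-155 to −0.37, as entry and as sum. On that scaling the sums of miR-342-3p, miR-150-5p, miR-342-5p, miR-146a-5p and miR-146b-5p had 1.59, 0.76, 0.71, 0.62 and 0.54. Those of miR-146b-3p and miR-150-3p had −0.39 and −1.43. With 1 library left out, miR-155 ranged from −0.49 to 0.44 and miR-146b-3p from −0.30 to 0.17. chi-miR-155-5p_L+2R+1 ranged from −1.74 to 0.91, but only without replicate 1 or 3 after or replicate 1 before ischemia. It was not tested with another single library left out. Without both libraries of replicates 2 and 3 miR-155 was at −0.069 and −0.15, and miR-146b-3p at 0.098 and 0.080, as entries and as sums. The log2 ratio of miR-146b-5p to miR-146a-5p ranged from −0.26 to 0.17 with 1 library left out, the share of the members from −0.0883 to 0.231 percentage points, and that of the longer miR-150-5p from −3.87 to 1.51. None of the values that reversed had passed a test, and the cause was not tested. miR-342-3p, miR-146a-5p, miR-146b-5p and miR-150-5p kept their direction under all alternatives run. No exact test of a ratio or share gave a p below 0.1, and in the paired form 3 pairs allow none below 0.25. Low counts limit miR-146b-3p, miR-342-5p and the variants other than bta-miR-150.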
